A study of Homo sapiens with 12 samples.

Results

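MITF, SOX10 and the pigment genes are 6 genes of the melanocyte lineage. They are the transcription factors MITF and SOX10, the melanin enzymes TYR and TYRP1, the melanosomal membrane protein OCA2 and the endothelin receptor EDNRB. They were chosen by name, with earlier results of these data known, so counts among them are descriptive. All 6 were measured, each by a single probe set, among 14580 genes with a symbol. Which transcripts of MITF its probe set detects was not tested. The arrays held RNA from A2058, an established human melanoma cell line kept in medium with serum, harvested 24 h into treatment. The 4 groups of 3 arrays were DMSO (the solvent), DT (dabrafenib at 100 nM with trametinib at 10 nM), E (entinostat at 1 µM) and DTE (dabrafenib at 100 nM, trametinib at 10 nM and entinostat at 1 µM). Dabrafenib blocks RAF kinases, trametinib blocks MEK below them in the same cascade, and entinostat blocks class I histone deacetylases. Values are deposited array intensities on the log2 scale, differences were tested with limma across all genes, and a gene is said to have risen or fallen, or to be called, at a Benjamini-Hochberg adjusted p under 0.05. The sample titles speak of biological replicates and the series design of technical triplicates, so each p-value reflects nothing beyond array-to-array spread, possibly of technical origin. All results come from 1 cell line and 1 time point.

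MITF is a basic helix-loop-helix factor that switches on the enzymes and structural proteins of the melanosome, the organelle in which melanin is made. SOX10, a factor of the neural crest, activates MITF and acts with it on the pigment genes. MITF binds E-box motifs, among them the M-box found upstream of TYR and TYRP1, while a cAMP response element upstream of the melanocyte isoform of MITF links its transcription to cAMP signalling. In melanoma, ERK signalling is known to hold down melanocyte differentiation, and endothelin signals through EDNRB support the growth and survival of melanoblasts.

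The promoter windows of the genes whose responses are compared most closely are shown, because TYR and TYRP1 share a motif that MITF is known to bind, EDNRB carries its core, and MITF itself carries a cAMP response element. Each RefSeq window (GRCh38.p14) runs from 250 bases before to 50 bases after an annotated start, is written 5′ to 3′ on the gene's strand, and carries in capitals the motif matches found. The motifs were CATGTG (the core of the M-box), TCATGTG (the core with its flanking T, which contains the former), CACGTG (the palindromic E-box), TGACGTCA (the cAMP response element), and ACAAAG and ACAATG (cores of SOX sites), each searched on both strands.
TYR, chr11:89177625-89177924, plus strand: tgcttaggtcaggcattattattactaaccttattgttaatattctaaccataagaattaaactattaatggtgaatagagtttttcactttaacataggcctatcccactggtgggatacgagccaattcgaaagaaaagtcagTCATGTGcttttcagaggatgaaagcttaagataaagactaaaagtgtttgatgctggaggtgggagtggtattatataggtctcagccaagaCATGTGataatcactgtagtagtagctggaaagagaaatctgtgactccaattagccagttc
TYRP1, chr9:12693135-12693434, plus strand: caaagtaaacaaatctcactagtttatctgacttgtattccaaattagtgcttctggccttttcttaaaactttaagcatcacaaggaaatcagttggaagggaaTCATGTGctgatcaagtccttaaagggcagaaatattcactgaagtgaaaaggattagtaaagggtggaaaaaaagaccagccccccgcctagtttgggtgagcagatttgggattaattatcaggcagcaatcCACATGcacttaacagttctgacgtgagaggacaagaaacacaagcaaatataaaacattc
EDNRB, window 1, chr13:77919633-77919932, minus strand: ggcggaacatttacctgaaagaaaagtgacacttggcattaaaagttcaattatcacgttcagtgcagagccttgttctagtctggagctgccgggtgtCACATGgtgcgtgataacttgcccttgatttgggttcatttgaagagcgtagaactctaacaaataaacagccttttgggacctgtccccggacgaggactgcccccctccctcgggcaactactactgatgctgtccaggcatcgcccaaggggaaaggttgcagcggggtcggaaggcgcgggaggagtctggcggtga
MITF, window 3, chr3:69936342-69936641, plus strand: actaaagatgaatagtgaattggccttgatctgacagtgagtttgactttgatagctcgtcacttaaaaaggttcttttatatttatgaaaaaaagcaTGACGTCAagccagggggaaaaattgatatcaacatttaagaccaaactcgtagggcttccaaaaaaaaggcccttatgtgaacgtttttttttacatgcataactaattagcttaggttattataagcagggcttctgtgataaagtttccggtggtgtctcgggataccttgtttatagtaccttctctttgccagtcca

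The windows of TYR and TYRP1 each held TCATGTG, with its first base at position -105 in TYR and -145 in TYRP1, where -1 is the base before the start. Each held a second CATGTG or its reverse complement close to the start, at -12 in TYR and -11 in TYRP1. One of the 2 EDNRB windows held the reverse complement CACATG at -151, and the OCA2 window held CATGTG at -153 and the reverse complement of ACAAAG at -142. The third of 3 MITF windows held TGACGTCA at -152, the first held ACAATG at -214, and the second held the reverse complement of ACAAAG at -189. CACGTG matched in none of the 8 windows of these 5 genes. Of 35116 windows of the same length in the table, 11.1% held CATGTG, 2.92% TCATGTG, 7.26% CACGTG, 1.85% TGACGTCA, 16.1% ACAAAG and 10.8% ACAATG. A match is a description of the letters and does not show binding.

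**Figure D1:**
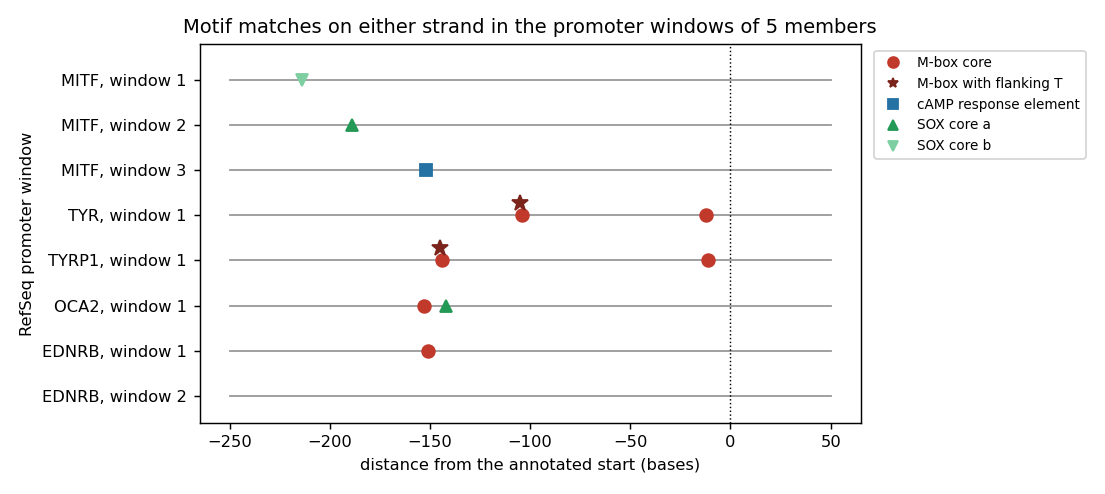
Motif matches on either strand in the 8 RefSeq promoter windows of 5 genes, plotted by the distance in bases of the first matched base from the annotated start (dotted line at 0). TYR and TYRP1 are the rows with a match to the M-box with its flanking T (stars, at -105 and -145), and the third MITF window carries the cAMP response element (square, at -152).

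The median log2 intensity of an array lay between 4.40 and 4.90. The group mean was lowest in DT (4.48 ± 0.11), followed by DTE (4.66 ± 0.04) and DMSO (4.68 ± 0.11), and highest in E (4.88 ± 0.02, SD, n = 3), so changes are given as deposited and, where the scale changes a call, after quantile normalization, which makes the distributions of all arrays equal, or after median centring. Of 9 melanocyte markers 8 were measured and 0 of them lay below the lower quartile of genes in any group. They were MITF, SOX10, TYR and TYRP1 of the 6 genes, with PMEL, MLANA, PAX3 and S100B. Their sum is therefore not separate from the values of the 6 genes. The summed intensity of these markers ranged from 1622 to 1790 in E, 1798 to 1911 in DMSO, 1916 to 2064 in DTE and 2912 to 3399 in DT. Of 6 measured keratinocyte markers 4 lay below the lower quartile in each group, and 0 were called in any comparison as deposited or after quantile normalization. After median centring 1 was called higher in DTE than in E and 2 higher in DT than in E, beside 6.71% and 25.5% of all genes. Their summed intensity ranged from 45.8 to 56.2 over all arrays. Of 3 fibroblast markers DCN lay below the lower quartile in every group, and the summed intensity was 166 to 193 in DMSO, 185 to 246 in DT, 301 to 359 in E, and 439 to 600.5 with all drugs. In E against DMSO 3 were called higher as deposited and after quantile normalization, beside 12.5% and 9.67% of all genes. After median centring 2 were, beside 7.53%. In DTE against DT 3 were called higher as deposited and 2 after quantile normalization, beside 13.8% and 12.2% of all genes. Of 2 blood cell markers and 2 endothelial markers, 1 each lay below the lower quartile in every group. The blood cell markers summed to at most 25.7, and the endothelial ones to 34.0 to 41.4 in DMSO, 13.4 to 15.2 in DT, 71.7 to 87.9 in E, and 35.1 to 43.7 with all drugs. The part of these markers in the results was not tested.

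Dabrafenib with trametinib raised 4 of the 6 genes, and the 3 DT arrays lay above the 3 DMSO arrays for all 6. Over all genes 3.23% were called higher and 24.1% lower in this comparison, and 5.48% had DT arrays wholly above DMSO. After quantile normalization all 6 were called higher, beside 8.55% of all genes higher and 7.86% lower. The median log2 change of the 6 genes was 1.47, against -0.17 over all genes. In bulk RNA, fewer cells of a type and less RNA per cell cannot be told apart.

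The transcription factors come first. MITF measured 6.28, 6.67 and 6.18 on the log2 scale in the DMSO arrays and 7.62, 7.95 and 7.62 in DT. The lowest DT array stood well above the highest DMSO array. MITF rose 2.56-fold (log2 change 1.36, SE 0.15, limma adjusted p = 2.6e-06), or 3.23-fold after quantile normalization. SOX10 measured 8.43, 8.46 and 8.45 in DMSO and 8.66, 8.85 and 8.75 in DT. The groups did not overlap, yet the difference of 0.31 (95% interval 0.05 to 0.56) missed the threshold as deposited (adjusted p = 0.067). It passed after quantile normalization at 0.66 (adjusted p = 0.0022).

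The melanin enzymes responded to very different degrees. TYR, which carries out the first steps of melanin synthesis, measured 8.70, 8.80 and 8.79 in DMSO and 9.01, 9.30 and 9.05 in DT. Its log2 difference of 0.35 (interval 0.08 to 0.63) also missed the threshold as deposited (adjusted p = 0.056) and reached 0.70 after quantile normalization (adjusted p = 0.00013). TYRP1, which acts later in the synthesis of eumelanin, measured 6.35, 6.46 and 6.26 in DMSO and 8.93, 9.19 and 8.99 in DT. Every DT array was thus more than 2 log2 units above every DMSO array. The rise was 6.4-fold (log2 change 2.68, interval 2.39 to 2.97, adjusted p = 1.1e-10).

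OCA2, which sets the ion balance of the melanosome, measured 4.69, 4.20 and 4.25 in DMSO and 5.94, 6.45 and 6.24 in DT, a rise of 3.55-fold (log2 change 1.83, SE 0.16, adjusted p = 1.6e-07). EDNRB, a G protein-coupled receptor, measured 7.44, 7.69 and 7.65 in DMSO and 9.07, 9.29 and 9.16 in DT, a rise of 2.99-fold (log2 change 1.58, SE 0.13, adjusted p = 4.7e-08). All 3 DT arrays were high for both genes, with no overlap.

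**Figure D2:**
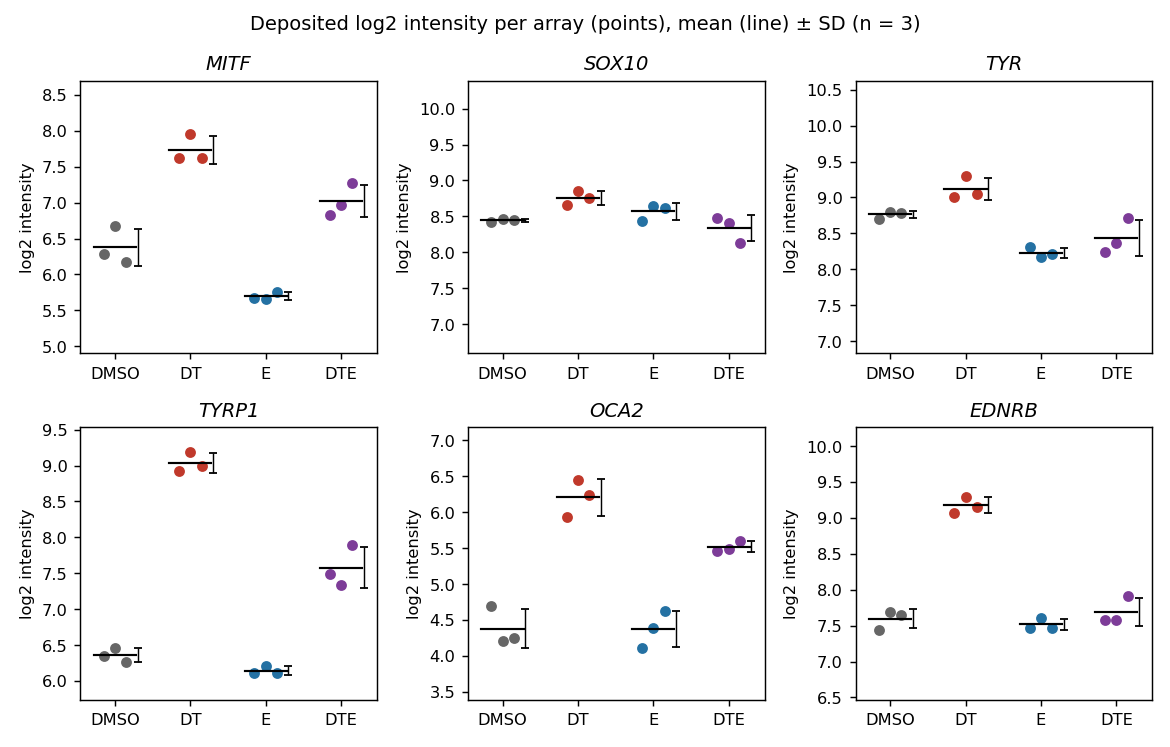
Log2 intensity of each gene in each of the 12 arrays (points), with the group mean (line) and SD (bar, n = 3) and an axis of the same length in every panel. TYRP1 runs from a mean of 6.14 in E to 9.03 in DT, SOX10 only from 8.34 in DTE to 8.75 in DT, and the 3 DT arrays of EDNRB stand above the arrays of the other groups.

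Entinostat alone lowered 2 of the 6 genes and raised 0, where 3.54% of all genes were called lower and 12.5% higher (8.45% and 9.67% after quantile normalization, 16.3% and 7.53% after median centring). MITF measured 5.68, 5.66 and 5.76 in E, below each DMSO array, and fell 1.60-fold (log2 change -0.68, interval -0.99 to -0.36, adjusted p = 0.0040). TYR measured 8.31, 8.17 and 8.21 in E, again below each DMSO array, and fell 1.45-fold (log2 change -0.53, adjusted p = 0.0090). TYRP1, at 6.11, 6.21 and 6.10, also lay wholly below DMSO, but its difference of -0.21 (interval -0.50 to 0.08) was not called (adjusted p = 0.35). After median centring it was called (-0.41, adjusted p = 0.023). For SOX10 (8.44, 8.65 and 8.61), OCA2 (4.11, 4.39 and 4.62) and EDNRB (7.47, 7.61 and 7.47) the arrays overlapped those of DMSO. Their differences were 0.12 (interval -0.13 to 0.38), -0.01 (-0.35 to 0.33) and -0.08 (-0.35 to 0.19), and that of SOX10 turned to -0.076 after median centring. Of all genes 22.3% lay wholly above and 9.95% wholly below DMSO.

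With the 3 drugs together, MITF, TYRP1 and OCA2 lay above DMSO and the other 3 genes did not pass the test. Over all genes 9.64% were called higher and 22.5% lower (14.2% each after quantile normalization), and 12.6% lay wholly above DMSO. MITF measured 6.83, 6.97 and 7.27 in DTE (log2 change 0.65, adjusted p = 0.0028), TYRP1 7.49, 7.34 and 7.89 (1.22, adjusted p = 3.0e-06) and OCA2 5.45, 5.49 and 5.60 (1.14, adjusted p = 3.5e-05). These 3 genes had no DTE array within the DMSO range. EDNRB measured 7.57, 7.57 and 7.91 in DTE, with 2 of the 3 arrays within the DMSO range and replicate 3 above it. Its difference of 0.09 (interval -0.18 to 0.36, adjusted p = 0.64) became 0.36 after quantile normalization (adjusted p = 0.0093). After median centring it was 0.12 and not called (adjusted p = 0.49). SOX10 measured 8.48, 8.40 and 8.13 (-0.11, or 0.17 after quantile normalization, neither called) and TYR 8.23, 8.37 and 8.72 (-0.32, adjusted p = 0.074). TYR passed the test without DTE replicate 3 (-0.46, adjusted p = 0.011). That array was the highest of its group for 5 of the 6 genes and the lowest for SOX10.

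**Figure D3:**
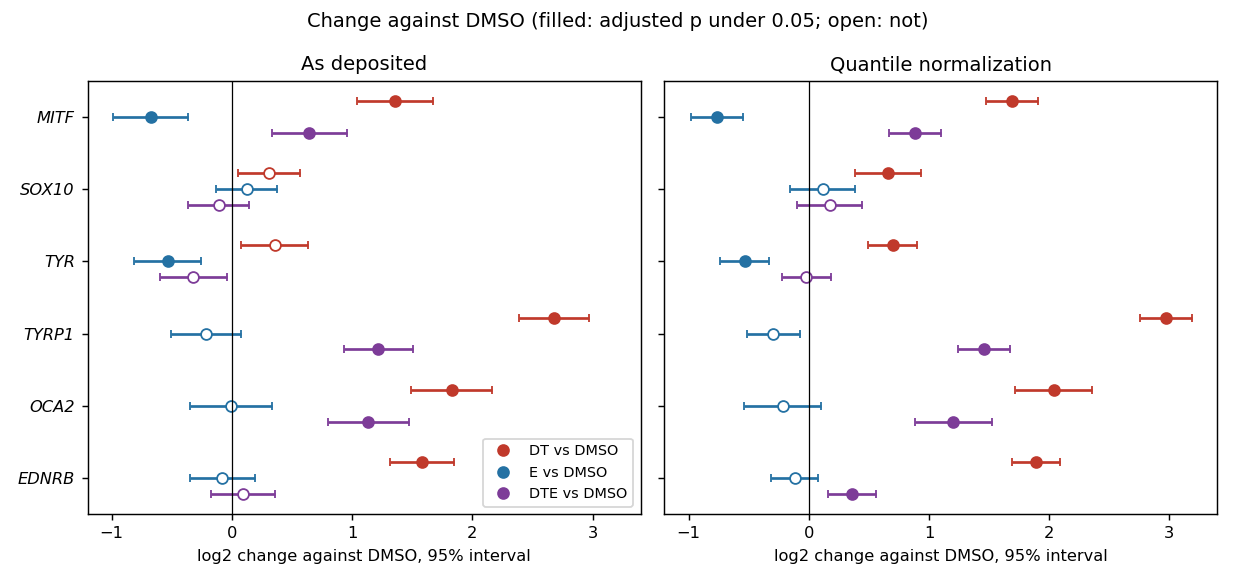
Log2 change of each gene against DMSO with its 95% interval, in DT, E and DTE, as deposited (left) and after quantile normalization (right); filled points passed an adjusted p of 0.05. In DT all 6 estimates lie right of 0, from 0.31 for SOX10 to 2.68 for TYRP1 as deposited, and SOX10 and TYR are filled only on the right.

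Entinostat added to dabrafenib with trametinib lowered all 6 genes, and every DTE array lay below every DT array for each of them. Of all genes, 5.09% were called lower and 13.8% higher in DTE than in DT (12% and 12.2% after quantile normalization), and 10.6% lay wholly below. EDNRB fell 2.81-fold (log2 change -1.49, SE 0.13, adjusted p = 1.7e-07) and TYRP1 2.75-fold (-1.46, SE 0.14, adjusted p = 5.5e-07). The falls of MITF (-0.71, adjusted p = 0.0021), OCA2 (-0.69, adjusted p = 0.0049) and TYR (-0.68, adjusted p = 0.0011) were about alike in size. That of SOX10 was the smallest of the 6 (-0.42, interval -0.67 to -0.16, adjusted p = 0.020). It was no longer called without DT replicate 2 (-0.37, adjusted p = 0.067), DT replicate 3 (-0.42, adjusted p = 0.058) or DTE replicate 3 (-0.32, adjusted p = 0.098).

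Set against entinostat alone, dabrafenib with trametinib still raised MITF, TYRP1 and OCA2, and 0 of the 6 genes were called lower, where 2.08% of all genes were called higher and 22.4% lower (6.99% and 5.84% after quantile normalization, and 6.71% higher after median centring). MITF was 2.50-fold higher in DTE than in E (log2 change 1.32, adjusted p = 5.5e-06), TYRP1 2.70-fold (1.43, adjusted p = 7.5e-07) and OCA2 2.21-fold (1.14, adjusted p = 6.9e-05). All DTE arrays stood above all E arrays for these 3 genes, as they did for 3.93% of all genes. TYR (0.21, interval -0.07 to 0.49), EDNRB (0.17, interval -0.10 to 0.44) and SOX10 (-0.23, interval -0.48 to 0.02) did not pass. After quantile normalization TYR (0.51) and EDNRB (0.48) were called higher, with adjusted p = 0.0025 and 0.0033, and SOX10 stood at 0.06. Between the separate treatments, 5 genes were called higher in DT than in E, from 0.89 for TYR to 2.89 for TYRP1. Of all genes 3.44% were called higher and 36.1% lower. The DT arrays lay wholly above the E arrays for all 6, as for 5.16% of all genes. SOX10, at 0.19, was not called as deposited, but was called higher after quantile normalization (0.54, beside 14.7% of all genes higher and 13.4% lower) and after median centring (0.59, beside 25.5% higher). DT, E and DTE were set against the same DMSO arrays, and the comparisons of one treated group with another share arrays too.

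The response to dabrafenib with trametinib could therefore be compared without and with entinostat, as what DTE measured less the value that adding both single-treatment log2 effects would give. This departure from additivity was negative and called for EDNRB and TYRP1, where 0.473% of all genes were called negative and 0.562% positive (0.96% and 1.19% after quantile normalization). EDNRB responded by 1.58 alone and by 0.17 with entinostat, a departure of -1.41 (interval -1.79 to -1.03, adjusted p = 0.00061). TYRP1 responded by 2.68 alone and by 1.43 with entinostat, a departure of -1.24 (interval -1.65 to -0.83, adjusted p = 0.0031). MITF responded by 1.36 alone and 1.32 with entinostat. Its departure was -0.03, with an interval of -0.48 to 0.41, so the sum of the separate effects (7.06) and the measured DTE mean (7.02) were close. OCA2 (-0.69, interval -1.17 to -0.20), SOX10 (-0.54, interval -0.90 to -0.18) and TYR (-0.14, interval -0.54 to 0.25) were not called after adjustment over all genes (adjusted p = 0.20, 0.16 and 0.84). The departures of TYRP1 and EDNRB were not tested against that of MITF, since they come from different probe sets.

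**Figure D4:**
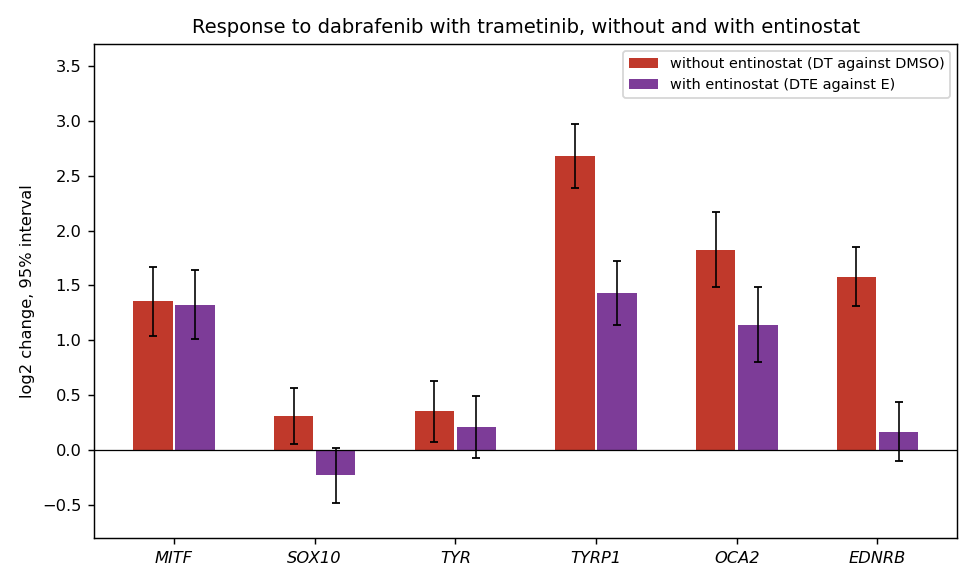
Log2 response of each gene to dabrafenib with trametinib, without entinostat (DT against DMSO, left bar) and with it (DTE against E, right bar), with 95% intervals. The bars of MITF are nearly level (1.36 and 1.32), while that of EDNRB drops from 1.58 to 0.17 and that of TYRP1 from 2.68 to 1.43.

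The order of the 4 levels differed between the genes. For MITF it was DT, DTE, DMSO and E, and each neighbouring pair differed beyond the spread of its arrays (steps of 0.71, 0.65 and 0.68, adjusted p of 0.0040 or less). TYRP1 and OCA2 followed the same order, but their lower pair, DMSO and E, did not differ by the test (0.21 and 0.01). For EDNRB DT stood apart, and neighbours among DTE, DMSO and E overlapped. DTE was called above DMSO after quantile normalization but not after median centring. For TYR the order was DT, DMSO, DTE and E, with no neighbouring pair called as deposited. After quantile normalization limma called DT against DMSO (adjusted p = 0.00013) and DTE against E (adjusted p = 0.0025). SOX10 had the smallest span of group means, 0.42, against 2.89 for TYRP1. Its order was DT, E, DMSO and DTE, again with no neighbouring pair called as deposited. That order depended on the scale. After quantile normalization the SOX10 means were 8.94 in DT, 8.46 in DTE, 8.40 in E and 8.28 in DMSO.

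Genes with the most similar profile were found as the smallest root mean square difference, over the 12 arrays, of the log2 value less the DMSO mean. Nearest to MITF were BAAT (0.22), IRF4 (0.25) and MLANA (0.25). The log2 changes of IRF4, a factor with a role in pigmentation, were 1.68 in DT, -0.42 in E and 0.68 in DTE. Nearest to EDNRB were CTSK (0.23), MLANA (0.23) and PRDM7 (0.26), and the changes of CTSK, a lysosomal protease, were 1.33, 0.14 and 0.23. PRDM7 stood at 2.67 in DMSO which is below the lower quartile of genes there. Nearest to OCA2 were PLXNC1 (0.24), SNAI2 (0.30) and RNF150 (0.32). Nearest to TYRP1, at a larger distance, were TP53INP2 (0.47), STK32A (0.52) and PLXNC1 (0.53). In E their changes were 0.56, 0.40 and -0.10 in that order, against -0.21 for TYRP1. Among the 6 genes themselves, the closest pair was SOX10 and TYR (0.40), while MITF lay nearest to EDNRB (0.44) and TYRP1 to OCA2 (0.48). For SOX10 and TYR, whose means spanned less than 1, no similar genes outside the 6 were searched.

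Of 31 other melanosome and pigment genes listed, 17 were measured, and 7 of them were raised and 2 lowered in DT (median log2 change 0.16, against -0.17 over all genes). Over all genes 3.23% were called higher and 24.1% lower. On quantile-normalized values 11 were higher and 0 lower, with a median of 0.46, beside 8.55% and 7.86% of all genes. The largest rises were in MLANA, a melanosomal protein and antigen (1.44, adjusted p = 2.6e-07), PMEL, which forms the fibrils of the melanosome (1.08, adjusted p = 1.7e-06), and GPNMB, a related glycoprotein (0.94, adjusted p = 4.8e-05). PMEL ranged from 8.77 to 8.81 in DMSO and 8.75 to 9.04 in E, which overlapped, and from 9.19 to 9.34 in DTE and 9.76 to 9.94 in DT, which did not. DTNBP1 (-0.52) and CD63 (-0.32) fell as deposited but were not called after quantile normalization (-0.24 and 0.05).

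In E 4 of these 17 genes rose and 1 fell, a split that turned to 2 and 3 after quantile normalization and 0 and 6 after median centring. The shares over all genes were 12.5% and 3.54% as deposited, 9.67% and 8.45% after quantile normalization, and 7.53% and 16.3% after median centring. GPR143, a pigment cell receptor, rose by 0.58, MLPH, which ties melanosomes to the actin motor, by 0.50, and HPS3, of a complex in melanosome formation, by 0.45, while MLANA fell by 0.42. Adding entinostat to DT lowered 7 of the 17 and raised 1 (median -0.24, against 0.06 over all genes), where 5.09% of all genes were called lower and 13.8% higher. The split was 11 lower and 1 higher after quantile normalization, beside 12% and 12.2% of all genes, and 12 and 0 after median centring. MLANA fell by 1.13, MLPH by 0.89 and LYST, a regulator of lysosome-related organelles, by 0.79. The departure from additivity was called for PMEL (-0.74, adjusted p = 0.034) and MLPH (-1.39, adjusted p = 0.0019). Over all genes 0.473% were called negative and 0.562% positive. After quantile normalization MLANA was called as well (-0.73, limma adjusted p = 0.043). As deposited, MLPH was raised by DT (0.55) and by E (0.50), yet ranged from 4.60 to 5.14 in DTE against 5.11 to 5.49 in DMSO. Its rise in E was not called after quantile normalization (0.33, limma adjusted p = 0.089). Against DMSO, DTE raised 3 of the 17 and lowered 2, PMEL rising by 0.46 and HPS4 changing by -0.59. Of all genes 9.64% were called higher and 22.5% lower there. After quantile normalization the split was 4 and 2, beside 14.2% of all genes each way.

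Among 19 measured genes listed as regulators of MITF (of 28 listed), 5 rose and 7 fell in DT. Over all genes 3.23% were called higher and 24.1% lower. After quantile normalization 7 rose and 3 fell, beside 8.55% and 7.86% of all genes. Whether each of them acts upstream of MITF in this line was not tested. IRF4, SNAI2, a factor of neural crest and melanocyte development (1.63), and FOXD3, a neural crest factor (1.34), rose most, while LEF1, the nuclear partner of beta-catenin (-1.56), POU3F2, a neural factor that can repress MITF (-1.33), and ADCY7, an adenylate cyclase (-0.96), fell most. LEF1 ranged from 7.15 to 7.29 in DMSO and from 5.61 to 5.74 in DT. PAX3, an activator of MITF, stood at 0.11 (adjusted p = 0.62) as deposited and rose by 0.47 after quantile normalization (adjusted p = 0.0028), and MC1R, the melanocortin receptor, was not called (adjusted p = 0.997).

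In E 2 of the 19 regulators rose and 3 fell (2 and 9 after quantile normalization, 2 and 12 after median centring). Over all genes 12.5% were called higher and 3.54% lower as deposited. These shares were 9.67% and 8.45% after quantile normalization, and 7.53% and 16.3% after median centring. The receptor KIT rose by 0.80 and its ligand KITLG by 0.79, while the histone acetyltransferases CREBBP and EP300, both coactivators of MITF, fell by 0.67 and 0.61, and ALX1 by 0.48. In DTE 6 rose and 8 fell against DMSO, beside 9.64% of all genes called higher and 22.5% lower. After quantile normalization 7 rose and 5 fell, beside 14.2% of all genes each way. KIT rose by 1.98, from 3.60 to 3.85 in DMSO to between 5.68 and 5.78, and KITLG by 1.18. MC1R fell by 0.54 (adjusted p = 0.015), while PAX3 stood at -0.17 (adjusted p = 0.39). Entinostat added to DT lowered IRF4 by 1.00, FOXD3 by 0.92 and SNAI2 by 0.83, and raised KITLG by 1.15, KIT by 0.82 and ADCY7 by 0.69. In this comparison 6 regulators fell and 4 rose, beside 5.09% of all genes called lower and 13.8% higher. After quantile normalization 8 fell and 3 rose, beside 12% and 12.2% of all genes. The departure from additivity was called for 0 of the 19 by limma as deposited, beside 0.562% of all genes positive and 0.473% negative. After quantile normalization it was called for LEF1 alone (0.59, limma adjusted p = 0.022), beside 1.19% and 0.96% of all genes. After median centring it was called for 1 of the 19.

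**Figure D5:**
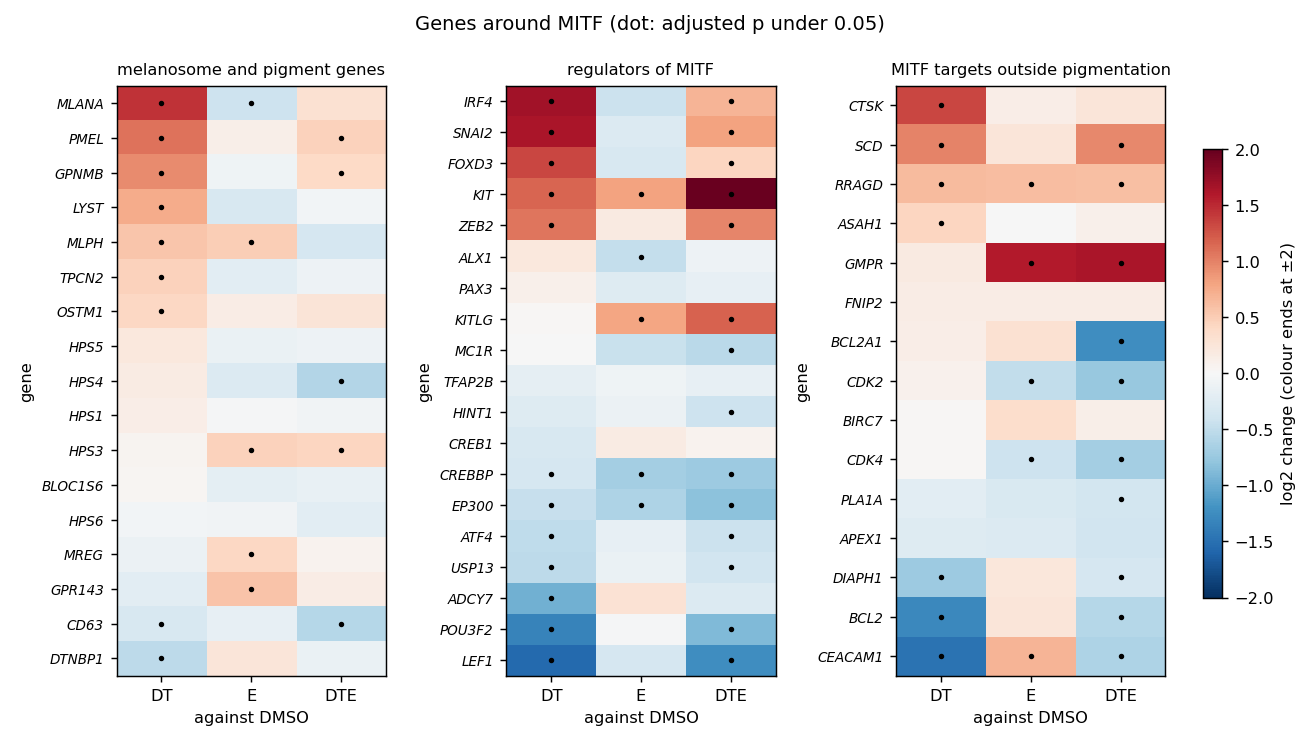
Log2 change against DMSO in DT, E and DTE as deposited (colour, red higher and blue lower, ending at 2 either way) for the measured genes of 3 lists, ordered by the change in DT; a dot marks an adjusted p under 0.05. MLANA, PMEL, IRF4, SNAI2 and CTSK head their lists in DT with paler cells in DTE, while KIT is strongest in DTE and GMPR is strong in E and DTE.

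Of 15 measured MITF targets outside pigmentation (of 20 listed), 4 rose and 3 fell in DT, where 3.23% of all genes were called higher and 24.1% lower, so that the share that fell was near that of all genes. After quantile normalization 8 rose and 3 fell, beside 8.55% and 7.86% of all genes. CTSK rose by 1.33, SCD, a fatty acid desaturase, by 0.99 and RRAGD, a GTPase of the mTORC1 pathway, by 0.63. CEACAM1, an adhesion molecule, fell by 1.48, BCL2, an inhibitor of apoptosis, by 1.28 and DIAPH1, an actin regulator, by 0.73. In E 3 rose and 2 fell, beside 12.5% of all genes called higher and 3.54% lower. After quantile normalization 3 rose and 3 fell, beside 9.67% and 8.45%. GMPR, an enzyme of guanine nucleotide metabolism, rose by 1.58, CEACAM1 by 0.68 and RRAGD by 0.62. CDK2 changed by -0.49 and CDK4 by -0.42. In DTE 3 rose and 7 fell against DMSO, beside 9.64% of all genes called higher and 22.5% lower. After quantile normalization 6 rose and 6 fell, beside 14.2% of all genes each way.

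BCL2A1, an inhibitor of apoptosis, ranged from 6.54 to 6.96 in DTE, 7.78 to 8.06 in DMSO, 7.94 to 8.15 in DT and 8.03 to 8.39 in E. Neither separate treatment was called as deposited (DT was 0.50 higher after quantile normalization, adjusted p = 0.010), and DTE lay below all other groups with no overlap and fell by 1.24 against DMSO (adjusted p = 3.1e-06). Its departure from additivity was -1.67 (adjusted p = 0.00049), and that of CTSK, which ranged from 7.16 to 7.49 in DT and 6.10 to 6.26 in DTE, was -1.23 (adjusted p = 0.0038). These were the 2 departures called among the 15 genes as deposited, beside 0.473% of all genes negative and 0.562% positive. After quantile normalization 3 of the 15 were called, all of them negative, beside 0.96% of all genes negative.

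Of the MITF family, TFE3, which regulates lysosomal genes, fell in DT (-0.62, adjusted p = 0.00062) and DTE (-0.67), though in DT not after quantile normalization (-0.24). TFEB rose in E (1.00, adjusted p = 0.00061) from a DMSO mean of 2.43, below the lower quartile of genes, and TFEC, at 1.91 in DMSO and likewise below it, was called in 0 of the 7 comparisons. Among 11 measured SOX relatives and glial targets of SOX10 (of 19 listed), 4 rose and 3 fell in DT. Beside this, 3.23% of all genes were called higher and 24.1% lower, so that the share that fell was near that of all genes. After quantile normalization 5 rose and 1 fell, beside 8.55% and 7.86% of all genes. SOX9, a close relative of SOX10, fell by 1.13 in DT and 1.55 in DTE. ERBB3, a neuregulin receptor and SOX10 target, rose by 0.36 in DT (adjusted p = 0.046) and fell by 1.07 in E and 0.72 in DTE. POU3F1, a factor of Schwann cells, rose by 0.74 in DT and had a departure of -0.98 (adjusted p = 0.0076), with DTE at 4.61 to 4.80 among the DMSO values of 4.63 to 4.78.

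The endothelin system around EDNRB had 5 measured genes of 13 listed. EDN1, an endothelin ligand, rose by 1.05 in E and 1.42 in DTE, ranging from 3.21 to 3.44 in DMSO and 4.44 to 5.25 in DTE. ECE1, which cleaves endothelin precursors, fell by 1.07 in DT and 0.75 in DTE and rose by 0.60 in E. In DT, where the mean of EDNRB was highest, that of ECE1 was lowest.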

How the data were processed

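Total RNA of A2058 cells was hybridised to 12 arrays. Per the submitters' processing notes RMA and the Transcriptome Analysis Console were used, with no version and no genome build. The intensity values the authors deposited were linear (1.88 to 8728), and later scaling of them is unknown. Probe sets with 1 symbol numbered 14748 of 29396. The brightest stood for each gene, giving 14580 genes with no filter on dim genes.

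The deposited values were converted to log2 here. Group means were then fitted by limma 3.58.1 (R 4.3.3) to the 12 arrays, leaving 8 residual degrees of freedom, and the fit was tested on simulated data. All genes entered the Benjamini-Hochberg adjustment, with an adjusted p under 0.05 called, in 7 comparisons. The lower quartile of genes, used as a mark of dim signal, was 2.98 for DMSO, 2.91 for DT, 3.12 for E, and 2.99 with all drugs. The number of arrays limits the precision.

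Genes named are the 6, up to 3 called genes each way per list and comparison, TFEB, TFE3, TFEC, MC1R, PAX3, and the 3 nearest profiles of each of the 6 whose group means span at least 1. Members, lists and comparisons were chosen with earlier results of these data known. Lists have counts and medians, with no list test. Promoter windows (RefSeq, GRCh38.p14) were matched by symbol for 5 of the 6 genes. Alternatives were quantile normalization, median centring, a dim-gene filter, every probe set, mean probe set, replicate number as a block, only the compared groups, a variance trend, and each array left out. Between arrays of a group 0 values were identical.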

Additional observations from a re-analysis of the deposited data

Results flagged for a closer look

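The response to dabrafenib with trametinib differed between arrays without and with entinostat by the interaction test for 2 of the 6 genes. For TYRP1 the difference of the log2 responses was -1.24 (SE 0.19, limma adjusted p = 0.0031), with 3 of 3 DTE arrays below all DT arrays and above all E arrays. For EDNRB it was -1.41 (SE 0.18, adjusted p = 0.00061), with 3 of 3 DTE arrays below all DT arrays. Both kept their call in every alternative run.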

How the results depend on the processing

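Under the 8 alternatives (7 for the interaction) and with each of the 12 arrays left out, the number of the 6 genes called stayed within 1.5 times of that reported in 6 of the 7 comparisons. The exception was DTE against E, where 3 became 5 after quantile normalization and 5 after median centring. With an array left out the number ranged from 4 to 6 for DT against DMSO, 3 to 4 for DTE against DMSO and 5 to 6 for DTE against DT, and was otherwise unchanged at 2, 3, 5 and 2 for E against DMSO, DTE against E, DT against E and the interaction. Of single log2 changes under these settings, 801 kept direction and side of the threshold, 20 passed it anew, 3 no longer passed and 10 changed sign, each of the last uncalled before and after. SOX10 turned to -0.076 for E against DMSO after median centring, and to 0.17 for DTE against DMSO and 0.059 for DTE against E after quantile normalization. With an array left out, OCA2 ranged from -0.13 to 0.15 for E against DMSO, EDNRB from -0.022 to 0.15 for DTE against DMSO, and MITF from -0.18 to 0.076 for the interaction. SOX10 in DT was also called with a variance trend (adjusted p = 0.031) or without DTE replicate 3 (adjusted p = 0.042). TYR in DT was called with a variance trend (adjusted p = 0.025), without dim genes (adjusted p = 0.045), or without DTE replicate 1 (adjusted p = 0.044) or 3 (adjusted p = 0.027). TYR in DTE against DMSO was called with a variance trend (-0.32, adjusted p = 0.037). The cause of these shifts was not tested. With the replicate block, the genes called among the 6 numbered 4, 2, 3, 6, 3, 5 and 2 in the order of the 7 comparisons, as without it, and the calls over all genes rose by at most 1.26 times. Replicate numbers were not taken to pair the arrays in the main fit. The correlation of deviations from group means exceeded 0.1 in 3 of 18 same-number pairs (median 0.05). It did so in 2 of 36 different-number pairs (median -0.03). For each array, the most alike of the 3 arrays of another group carried the same number in 24 of 36 cases. Whether arrays of the same number shared a batch was not tested. Array signals near the lower quartile of genes limit what can be said of OCA2 less than of TFEB and TFEC.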

Other observations

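Among the markers of other cell types, 2 genes moved far in this line. KDR, an endothelial growth factor receptor, ranged from 4.83 to 5.16 in DMSO, fell to between 2.95 and 3.32 in DT (log2 change -1.89, limma adjusted p = 2.7e-08), rose to between 6.02 and 6.33 in E (1.19, adjusted p = 1.5e-05) and stood at 4.83 to 5.23 in DTE. LUM, a matrix proteoglycan, had a mean of 7.20 in DMSO and ranged from 7.31 to 7.76 in DT (0.29, adjusted p = 0.18), and it rose to between 7.96 and 8.22 in E (0.93, adjusted p = 0.00034) and to between 8.66 and 9.13 in DTE (1.63, adjusted p = 4.0e-07).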
